A study of Mus musculus with 18 samples.

Results

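The genes described here copy DNA: 41 genes of DNA replication and entry into S phase, chosen by name from the list that defines the set and all found among the 43280 gene symbols of the count files. All 41 passed the filter on low counts, as did 13922 genes in all. They fall into 10 genes of origin licensing, 6 of helicase activation, 8 for the sliding clamp, its loader and the single-strand binding protein, 8 polymerase and Okazaki fragment genes, 4 of deoxynucleotide supply and 5 regulators of the step into S phase. The series holds 18 RNA-seq libraries of flow-sorted mouse T cells and T-cell precursors, in 4 groups. The iRTE group (n = 5) and the Artificial CD8 group (n = 5) were CD8+ T cells, and the CD4+CD8+ group (n = 3) carried both coreceptors. All 3 were differentiated from Pmel iPSC, an induced pluripotent stem cell source, and the labels name OP9-DL1, a stromal line that presents a Notch ligand, as their culture. The labels do not spell out iRTE. The study's design also names a 3D thymic culture for CD8+ cells, which by elimination would be the iRTE group, while each iRTE library's growth entry names OP9-DL1, as do those of the splenic libraries. The splenic CD8 group (n = 5) was naive CD8+ T cells taken ex vivo from the spleen of transgenic mice, whose age is not given in the sources used here. Sorting used CD45, both coreceptors and the alpha-beta receptor of T cells, and a dump gate removed cells with NK1.1, CD11c or the gamma-delta receptor. The labels name no separate cultures, iPSC clones or animals behind the replicates, and a p-value therefore covers no more than the spread among these libraries, which may be technical.

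DNA is copied from origins that are prepared in G1, when the origin recognition complex, Cdc6 and Cdt1 load rings of Mcm2 to Mcm7 onto DNA. In S phase Cdc45 and the GINS complex turn each ring into an active helicase, the clamp Pcna holds the polymerases on DNA, and ribonucleotide reductase and its partners supply the building blocks. Transcription factors of the E2F family switch many of these genes on late in G1. In the T lineage, dividing precursors in the thymus use this machinery heavily, while naive CD8+ cells in the spleen are resting cells outside the cell cycle. RNA of a bulk sample is an average: fewer cells in S phase and less RNA per cell cannot be told apart.

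Total counts ran from 11691286 to 16533373 in iRTE, 15953388 to 19305751 in Artificial CD8, 11747367 to 12208210 in CD4+CD8+ and 11132768 to 17671852 in splenic CD8 libraries. Levels are in CPM, the count scaled to the library's total, are not corrected for gene length and are compared only within a gene. Ranges and overlaps of libraries use this CPM, while fold changes, tests and log2 CPM also use TMM scaling factors. These factors were 0.886 to 0.999 in iRTE, 1.01 to 1.02 in Artificial CD8, 0.985 to 1.01 in CD4+CD8+ and 1.05 to 1.06 in splenic CD8 libraries. Alpha-beta T-cell markers, summed over 7 genes, reached 8133 to 15364 CPM in every library, and Cd4 was at 0 in all 5 iRTE libraries. One library stood apart: iRTE 4 was the lowest iRTE library for 39 of the 41 members. The share of all tested genes that were lowest in iRTE 4 was not counted. iRTE 4 also differed outside the set: its alpha-beta markers summed to 8133 CPM, against 9751 to 11915 CPM in the other iRTE libraries. Its naive CD8 markers (9 genes) summed to 10814 CPM, the highest of any library, against 7112 to 8386 CPM in the other iRTE libraries. Splenic CD8 libraries had 9781 to 10094 CPM of them. Cd8a, which is among these genes, was lower in iRTE 4, at 443 CPM against 1117 to 1338 CPM in the other iRTE libraries. Markers of dividing cells outside the set (Mki67, Top2a, Cdk1 and Ccnb1, summed) stood at 401, 369, 378, 83.6 and 486 CPM in iRTE 1 to 5, at 794 to 1056 CPM in Artificial CD8, 1060 to 1224 CPM in CD4+CD8+ and 79.6 to 112 CPM in splenic CD8 libraries. Like the members, their sum was low in iRTE 4 and in splenic CD8 libraries, but it was highest in CD4+CD8+ cells. Top2a, Cdk1 and Ccnb1 in iRTE 1, 2, 3 and 5 lay between splenic CD8 and Artificial CD8 libraries. Mki67 did not, with 31.4, 38.2, 45.4, 5.75 and 146 CPM in iRTE 1 to 5. It had 103 to 110 CPM in Artificial CD8, 174 to 252 CPM in CD4+CD8+ and 19.9 to 38 CPM in splenic CD8 libraries. The part of these markers in the results was not tested. Erythroid markers (5 genes) summed to at most 2.03 CPM in the cultured groups and to 78.1 to 106 CPM in splenic CD8 libraries. The part of these cells in the differences from splenic CD8 cells was not tested. Myeloid markers (6 genes) summed to 0.157 to 6.53 CPM in iRTE, 1.46 to 6.14 CPM in Artificial CD8, 0.766 to 4.82 CPM in CD4+CD8+ and 3.83 to 14.1 CPM in splenic CD8 libraries. NK markers (4 genes, with Klra8 at 0 in every library) summed to 536 to 1156, 674 to 839, 544 to 834 and 502 to 575 CPM in the same groups. Nearly all of each sum was Nkg7: Ncr1 reached at most 0.601 CPM and Klrb1c at most 3.51 CPM in any library. Stromal markers (8 genes) summed to 0.94 to 3.85 CPM in iRTE, with Col1a1, Col3a1 and Cxcl12 at 0, to 19 to 30.1 CPM in Artificial CD8, 1.53 to 81.7 CPM in CD4+CD8+ and 2.41 to 3.79 CPM in splenic CD8 libraries, and their part in the differences among cultured groups was not tested. The mean log2 CPM of the members was 6.66 in CD4+CD8+ 3, with 81.7 CPM of stromal markers, and 6.69 in CD4+CD8+ 1, with 1.53 CPM.

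Promoters show what many members share beyond their function. RefSeq windows of 300 bases (250 before and 50 after a start site, build GRCm38.p6, not the mm9 build of the counts) were at hand for 33 of the 41 members. The 8-letter E2F motifs TTTGGCGC, TTTCCCGC, TTTGCCGC and TTTCGCGC, searched on both strands, were found for 13 of these 33 members (39.4%), against 451 of the 9398 tested genes with a window (4.8%) and 19 of 56 genes of the other replication lists described below (33.9%). The 13 were Orc1, Cdc6, Cdt1, Mcm3, Mcm5, Mcm6, Mcm7, Gins3, Rfc3, Pola1, Pold1, Lig1 and E2f2. CCAAT boxes were found for 63.6% of members and 43.1% of tested genes. The windows below are those of 4 licensing genes with a match and of Rpa1, a member with its own pattern across the groups and no match. Capitals mark the E2F matches on either strand, and in Mcm5 and Mcm6 a pair of matches on opposite strands overlaps.
Mcm5, chr8:75109259-75109558, plus strand: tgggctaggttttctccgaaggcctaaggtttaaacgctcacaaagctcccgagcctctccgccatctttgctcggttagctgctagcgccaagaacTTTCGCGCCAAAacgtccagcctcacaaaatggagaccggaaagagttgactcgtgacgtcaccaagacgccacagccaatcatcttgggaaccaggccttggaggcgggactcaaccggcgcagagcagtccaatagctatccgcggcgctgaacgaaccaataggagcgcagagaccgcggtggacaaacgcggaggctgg
Mcm6, chr1:128359656-128359955, minus strand: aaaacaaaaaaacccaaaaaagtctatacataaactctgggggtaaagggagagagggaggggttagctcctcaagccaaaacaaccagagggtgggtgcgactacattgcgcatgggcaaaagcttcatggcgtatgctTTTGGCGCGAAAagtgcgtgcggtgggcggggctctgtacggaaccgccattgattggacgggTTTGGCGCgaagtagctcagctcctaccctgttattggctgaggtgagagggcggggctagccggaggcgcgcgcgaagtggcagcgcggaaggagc
Cdc6, chr11:98907901-98908200, plus strand: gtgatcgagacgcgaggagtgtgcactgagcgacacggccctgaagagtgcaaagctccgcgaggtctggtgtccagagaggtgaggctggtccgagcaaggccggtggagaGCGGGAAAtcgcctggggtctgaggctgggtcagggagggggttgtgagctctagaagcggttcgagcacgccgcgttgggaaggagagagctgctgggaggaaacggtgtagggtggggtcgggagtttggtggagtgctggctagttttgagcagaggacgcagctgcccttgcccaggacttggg
Orc1, chr4:108579204-108579503, plus strand: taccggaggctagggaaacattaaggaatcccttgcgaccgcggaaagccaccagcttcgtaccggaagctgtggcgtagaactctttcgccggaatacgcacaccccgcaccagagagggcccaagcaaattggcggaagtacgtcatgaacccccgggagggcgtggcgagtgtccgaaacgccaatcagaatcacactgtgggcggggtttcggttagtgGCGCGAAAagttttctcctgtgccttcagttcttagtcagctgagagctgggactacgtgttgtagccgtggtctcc
Rpa1, chr11:75348334-75348633, minus strand: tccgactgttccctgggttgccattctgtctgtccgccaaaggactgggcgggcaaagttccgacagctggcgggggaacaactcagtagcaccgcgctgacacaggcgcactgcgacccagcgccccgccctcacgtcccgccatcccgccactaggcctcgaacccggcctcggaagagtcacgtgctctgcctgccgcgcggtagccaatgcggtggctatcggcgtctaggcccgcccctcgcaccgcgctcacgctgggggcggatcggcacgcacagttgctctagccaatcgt
A match is a run of letters, not a bound site. Median log2 fold changes of members with and without one are described here without a test. Over splenic CD8 they were 1.26 and 1.41 for iRTE, 2.10 and 2.37 for Artificial CD8, and 1.72 and 1.88 for CD4+CD8+ cells. For iRTE they were -0.91 and -0.81 over Artificial CD8, and -0.91 and -0.62 over CD4+CD8+ cells. For Artificial CD8 over CD4+CD8+ cells they were 0.45 and 0.30.

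Replication genes were lowest in splenic CD8 cells for all 41 members, and highest in Artificial CD8 cells for 32. The order of group means Artificial CD8, CD4+CD8+, iRTE, splenic CD8 held for 29 members. Such orders were not counted over all tested genes. Another 8 were highest in CD4+CD8+ cells, 3 placed iRTE above CD4+CD8+ cells, and Rpa1 alone had its highest mean in iRTE cells. The mean log2 CPM over the members (prior count 2) was 5.87 ± 0.64 in iRTE, 6.91 ± 0.11 in Artificial CD8, 6.67 ± 0.02 in CD4+CD8+ and 4.57 ± 0.05 in splenic CD8 cells (SD over libraries). Summed over the members, the level was 2426 to 4851 CPM in iRTE, 7647 to 9105 CPM in Artificial CD8, 6492 to 6963 CPM in CD4+CD8+ and 2050 to 2210 CPM in splenic CD8 libraries. The iRTE spread was iRTE 4: its mean was 4.72, the other 4 iRTE libraries lay between 6.08 and 6.25, and splenic CD8 libraries between 4.49 and 4.62. Within a group the members had a median SD of log2 CPM of 0.59 in iRTE, 0.14 in Artificial CD8, 0.17 in CD4+CD8+ and 0.14 in splenic CD8 cells, against 0.47, 0.21, 0.30 and 0.17 over all tested genes.

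**Figure D1:**
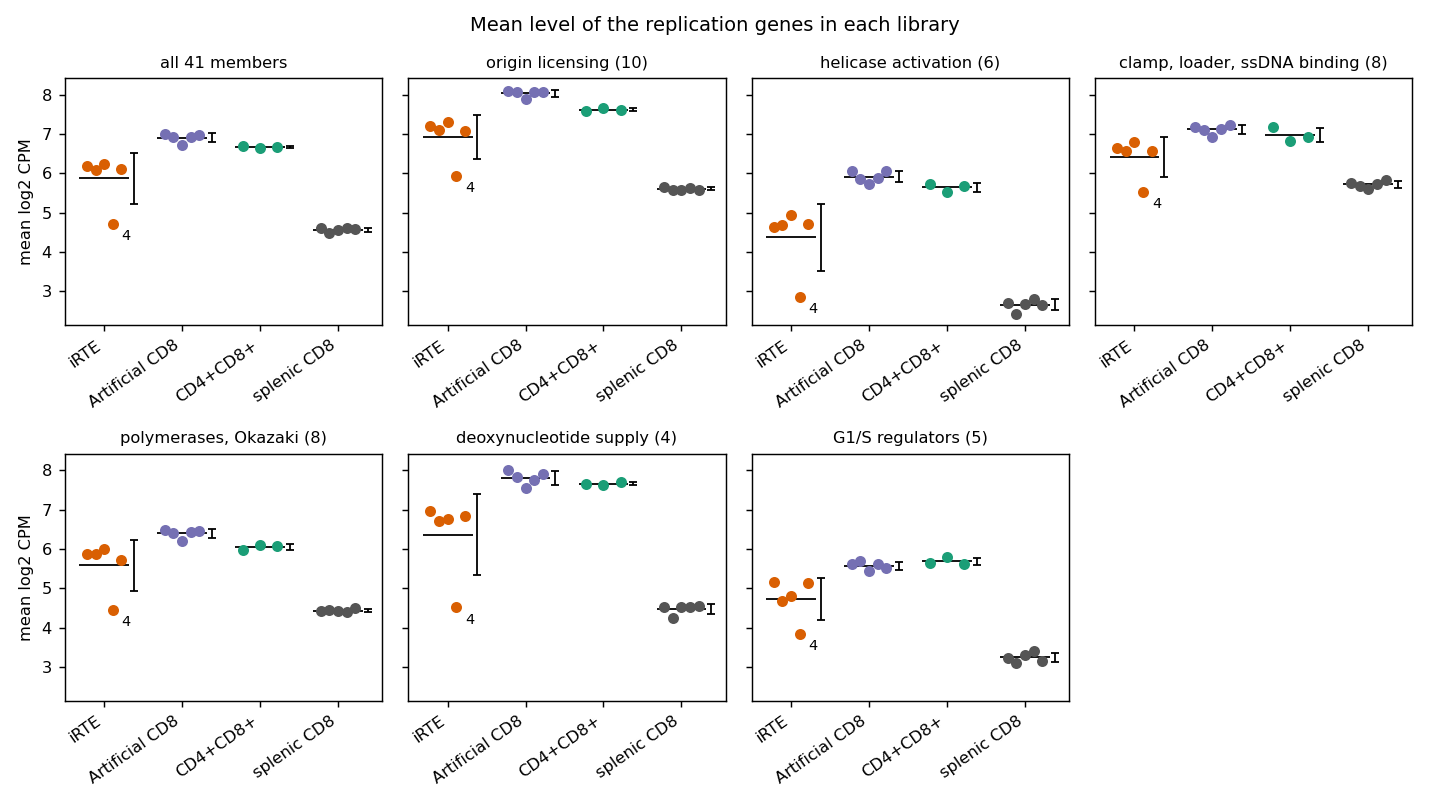
Mean log2 CPM of all 41 members and of each role group in every library, with the number of genes in brackets. Points are libraries, horizontal lines are group means and bars are SD; iRTE 4, marked 4, sits at 4.72 over all members, near the splenic CD8 libraries at 4.49 to 4.62, while the other iRTE libraries sit at 6.08 to 6.25.

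Setting iRTE cells against splenic CD8 cells asks how the cultured CD8+ cells differ from naive cells of the body. Of the 41 members 38 were higher in iRTE cells at an adjusted p under 0.05 and 0 were lower, where 29.2% of all tested genes were higher and 29.0% lower. Adjusted p-values come from the quasi-likelihood F test of edgeR, adjusted after Benjamini and Hochberg over all 13922 genes, and each log2 fold change is given ± SE. The median log2 fold change of the members was 1.29, against -0.05 over all tested genes. Gins3 (0.23 ± 0.20, adjusted p = 0.25), Rfc3 (0.60 ± 0.44, adjusted p = 0.0618) and Rpa3 (0.37 ± 0.21, adjusted p = 0.104) did not pass. Every iRTE library lay above every splenic CD8 library for 15 members, a pattern held by 14.2% of tested genes. Without iRTE 4 the count was 40, with a median of 1.43, where 30.5% of tested genes were higher. Then Rfc3 (0.85) and Rpa3 (0.50) passed too. With iRTE 1 to 3, whose descriptions share a form of name, as the only iRTE libraries the count was 40 (median 1.58). With iRTE 4 and 5, which share another, it was 29 (median 0.91). Of tested genes 31.5% and 22.7% were higher in these fits.

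Artificial CD8 cells, CD8+ cells from OP9-DL1 culture, were higher than splenic CD8 cells in all 41 members, where 30.3% of tested genes were higher and 30.2% lower (60.6% in either direction). No library of these groups overlapped for any of the 41, against 28.3% of tested genes with Artificial CD8 cells above. The median log2 fold change was 2.16 (-0.03 over all tested genes) and 37 members differed by at least 2-fold. The share of all tested genes that differed by at least 2-fold was not counted. CD4+CD8+ cells were higher than splenic CD8 cells in 40 members and lower in 0, where 28.9% of tested genes were higher and 27.4% lower. The median was 1.82 (-0.03 over all tested genes), and 40 members did not overlap (28.3% of tested genes). Pola2 did not pass (0.22 ± 0.09, adjusted p = 0.201). The comparisons of the 3 cultured groups with splenic CD8 cells share the splenic libraries, so they are not independent of one another.

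**Figure D2:**
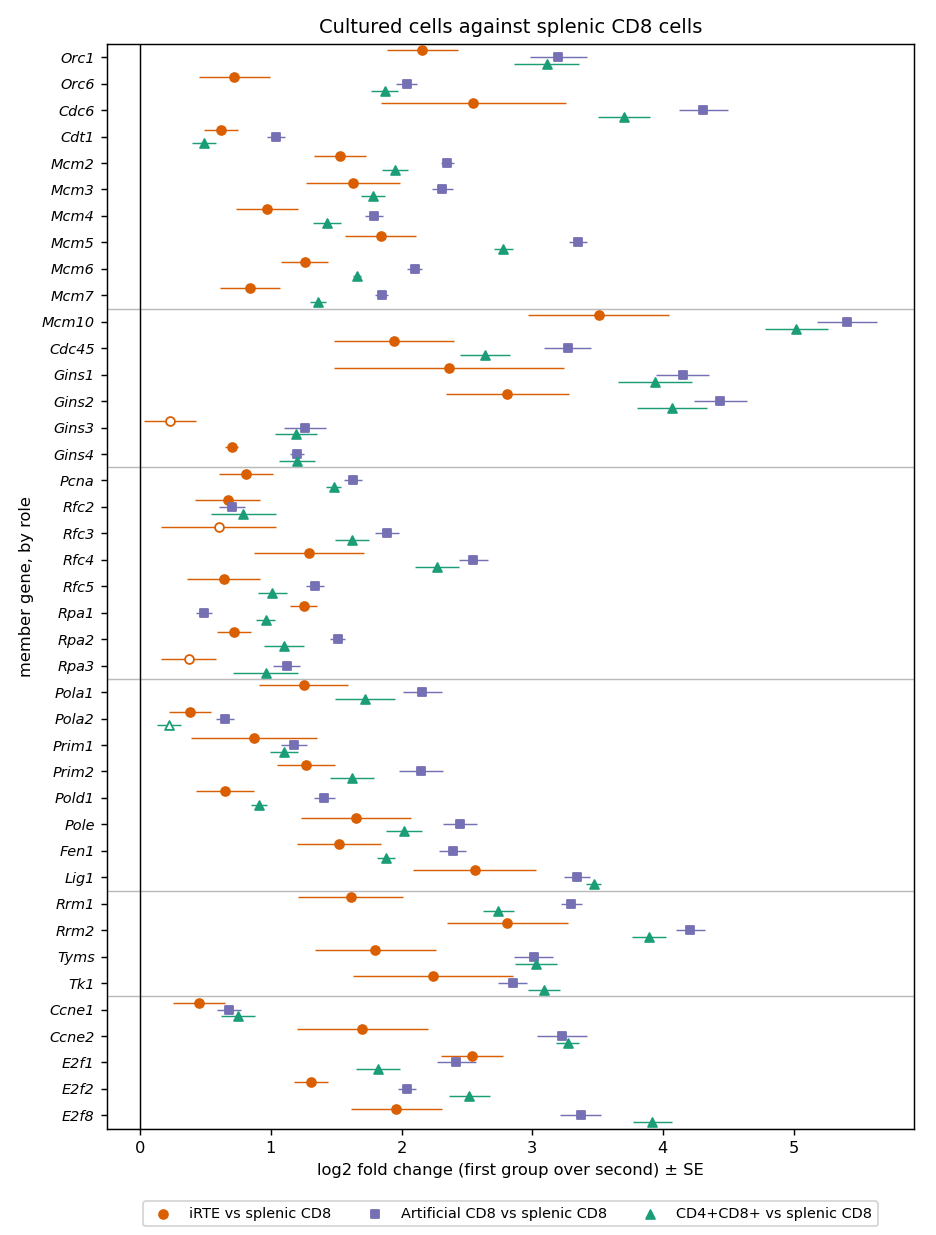
Log2 fold change of each member over splenic CD8 cells in iRTE, Artificial CD8 and CD4+CD8+ cells, with SE bars, by role group from origin licensing at the top to G1/S regulators at the bottom. Filled symbols passed an adjusted p of 0.05 and open ones did not; all lie right of 0, from 0.22 for Pola2 in CD4+CD8+ cells to 5.41 for Mcm10 in Artificial CD8 cells.

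Origin licensing genes, which load the helicase in G1, rose in all 3 cultured groups: 10 of 10 passed against splenic CD8 cells in each, with median log2 fold changes of 1.39 in iRTE, 2.20 in Artificial CD8 and 1.83 in CD4+CD8+ cells. All 10 fell in iRTE relative to Artificial CD8 cells (median -0.93). For this and every role below, the counts stand beside fixed shares over all tested genes. Over splenic CD8 cells 29.2% were higher in iRTE, 30.3% in Artificial CD8 and 28.9% in CD4+CD8+ cells. Relative to Artificial CD8 cells 18.7% were lower in iRTE. Orc1 had 14.9, 11.9, 12.3, 7.8 and 12.8 CPM in iRTE 1 to 5, 26.3, 29.6, 22.4, 29.2 and 26.9 CPM in Artificial CD8 1 to 5, 26.2, 27.5 and 20.6 CPM in CD4+CD8+ 1 to 3, and 4.81, 2.33, 3.2, 2.66 and 1.98 CPM in splenic CD8 1 to 5. Orc1 is the large subunit of the origin recognition complex. The cultured groups lay above splenic CD8 cells with no overlap, and iRTE below both other cultured groups with none. The difference was 4.48-fold for iRTE over splenic CD8 cells (2.16 ± 0.27, adjusted p = 3.86e-07), and iRTE was 2.06-fold lower than Artificial CD8 cells (-1.04 ± 0.19, adjusted p = 0.000909). Cdc6 had 35, 36.1, 40.2, 3.51 and 38.1 CPM in iRTE 1 to 5, 113, 123, 111, 118 and 105 CPM in Artificial CD8 1 to 5, 66.3, 80.7 and 74 CPM in CD4+CD8+ 1 to 3, and 3.56, 7.89, 5.72, 6.6 and 6.11 CPM in splenic CD8 1 to 5. Cdc6, the ATPase that loads the ring together with Cdt1, thus differed most of the licensing genes against splenic CD8 cells in every cultured group. Yet in CPM iRTE 4 lay just below all 5 splenic CD8 libraries. With TMM scaling iRTE 4 (log2 CPM 1.91) lay above splenic CD8 1 (1.82). The log2 fold changes of Cdc6 over splenic CD8 cells were 2.55 ± 0.71, adjusted p = 3.13e-05 in iRTE, 4.31 ± 0.19, adjusted p = 7.37e-08 in Artificial CD8 and 3.70 ± 0.20, adjusted p = 1.35e-06 in CD4+CD8+ cells. Without iRTE 4 the first was 2.85. Cdt1 had 75.2, 60.7, 91.8, 82.6 and 105 CPM in iRTE 1 to 5, 116, 122, 106, 139 and 120 CPM in Artificial CD8 1 to 5, 89.4, 77.9 and 77.4 CPM in CD4+CD8+ 1 to 3, and 60.1, 60.8, 56.6, 66.9 and 61.5 CPM in splenic CD8 1 to 5. Cdt1, the other loading factor, is destroyed in S phase at the level of protein. It was the licensing gene that differed least from splenic CD8 cells, by 1.53-fold in iRTE (0.62 ± 0.13, adjusted p = 0.000188), 2.05-fold in Artificial CD8 (1.04 ± 0.07, adjusted p = 4.19e-07) and 1.4-fold in CD4+CD8+ cells (0.49 ± 0.09, adjusted p = 0.00446), and the only member called higher in Artificial CD8 than in CD4+CD8+ cells. iRTE 4, at 82.6 CPM, was not low for it.

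The ring itself followed the same order. Mcm2 had 268, 279, 323, 158 and 305 CPM in iRTE 1 to 5, 534, 482, 480, 557 and 514 CPM in Artificial CD8 1 to 5, 332, 416 and 407 CPM in CD4+CD8+ 1 to 3, and 102, 105, 103, 113 and 102 CPM in splenic CD8 1 to 5. Mcm5 had 288, 288, 326, 128 and 278 CPM in iRTE 1 to 5, 839, 853, 760, 814 and 828 CPM in Artificial CD8 1 to 5, 531, 550 and 561 CPM in CD4+CD8+ 1 to 3, and 95.7, 74.7, 75.9, 84.7 and 87 CPM in splenic CD8 1 to 5. Both are subunits of the Mcm2 to Mcm7 ring. In CPM every cultured library lay above every splenic one and every iRTE library below every Artificial CD8 and CD4+CD8+ library. With TMM scaling Mcm2 in iRTE 3 (log2 CPM 8.51) lay above CD4+CD8+ 1 (8.40). Mcm2 did not pass for iRTE over CD4+CD8+ cells (-0.42, adjusted p = 0.0782). Mcm5 rose by 1.84 ± 0.27 in iRTE over splenic CD8 cells (adjusted p = 1.45e-07) and fell by 1.51 ± 0.27 in iRTE relative to Artificial CD8 cells (adjusted p = 2.8e-06). Mcm2 gave 1.53 ± 0.20, adjusted p = 1.06e-07 and -0.81 ± 0.21, adjusted p = 0.000226 in these comparisons. The 4 other ring genes had like fold changes over splenic CD8 cells in iRTE, from 0.84 for Mcm7 to 1.63 for Mcm3, all past the threshold. Orc6, another subunit of the origin recognition complex, differed least of the licensing genes but Cdt1 there (0.72 ± 0.27, adjusted p = 0.00371), and most of those called between iRTE and CD4+CD8+ cells (-1.15 ± 0.27, adjusted p = 0.000709).

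Helicase activation genes had the largest medians of any role over splenic CD8 cells, and between iRTE and Artificial CD8 cells. Over splenic CD8 cells 5 of 6 rose in iRTE (median 2.15), 6 of 6 in Artificial CD8 (3.71) and 6 of 6 in CD4+CD8+ cells (3.29), and all 6 fell in iRTE relative to Artificial CD8 cells (-1.47). Mcm10 had 21.6, 27.4, 29.1, 4.72 and 21.6 CPM in iRTE 1 to 5, 109, 79.9, 80, 75.2 and 83.9 CPM in Artificial CD8 1 to 5, 53.8, 66.7 and 74 CPM in CD4+CD8+ 1 to 3, and 2.43, 1.58, 3.27, 1.52 and 1.62 CPM in splenic CD8 1 to 5. Mcm10 helps the assembled helicase to start, and no library of any of the 4 groups overlapped with another group. It had the largest difference of any member from splenic CD8 cells, 11.4-fold in iRTE (3.51 ± 0.54, adjusted p = 3.39e-07), 42.4-fold in Artificial CD8 (5.41 ± 0.23, adjusted p = 1.3e-09) and 32.5-fold in CD4+CD8+ cells (5.02 ± 0.24, adjusted p = 1.02e-08). Cdc45 had 43.5, 39.2, 39.5, 10.2 and 48.2 CPM in iRTE 1 to 5, 103, 100, 81.4, 104 and 107 CPM in Artificial CD8 1 to 5, 55.2, 69.6 and 65.1 CPM in CD4+CD8+ 1 to 3, and 13, 7.51, 10.4, 8.63 and 14 CPM in splenic CD8 1 to 5. Cdc45 is the part of the active helicase that joins the ring with GINS. iRTE 4 stood within the splenic CD8 range for it, and the other iRTE libraries at 39.2 CPM or more. The gene rose by 1.94 ± 0.46 in iRTE (adjusted p = 1.64e-05). Gins2 had 13.1, 12.2, 25.6, 4.17 and 13.6 CPM in iRTE 1 to 5, 49, 43.9, 39, 48.4 and 52.8 CPM in Artificial CD8 1 to 5, 43.8, 27.8 and 35.8 CPM in CD4+CD8+ 1 to 3, and 1.58, 2.4, 2.01, 3.43 and 1.71 CPM in splenic CD8 1 to 5. Gins2 is a GINS subunit, and in CPM its iRTE libraries lay between splenic CD8 and the other cultured libraries without overlap. With TMM scaling iRTE 3 (log2 CPM 4.86) lay above CD4+CD8+ 2 (4.79). Its log2 fold changes were 2.81 ± 0.47, adjusted p = 2.67e-06 for iRTE over splenic CD8 and -1.62 ± 0.44, adjusted p = 0.000565 for iRTE over Artificial CD8 cells.

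The 4 GINS subunits, which form one complex with a copy of each, did not move by like amounts. Gins1 rose in iRTE by 2.36 ± 0.88 and Gins2 by 2.81 ± 0.47, Gins4 by 0.70 ± 0.05, while Gins3 averaged 17.1 ± 4.46 CPM in iRTE and 16.4 ± 3.56 CPM in splenic CD8 cells. Artificial CD8 cells showed the same split, with log2 fold changes over splenic CD8 cells of 4.15 ± 0.20 for Gins1, 4.44 ± 0.20 for Gins2, 1.26 ± 0.16 for Gins3 and 1.20 ± 0.05 for Gins4. These differences between genes were not tested. Gins1 had 0.363 CPM in iRTE 4, against 7.01 to 11.7 CPM in the other iRTE libraries. By limma-voom it did not pass for iRTE over splenic CD8 cells (1.60, adjusted p = 0.117).

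**Figure D3:**
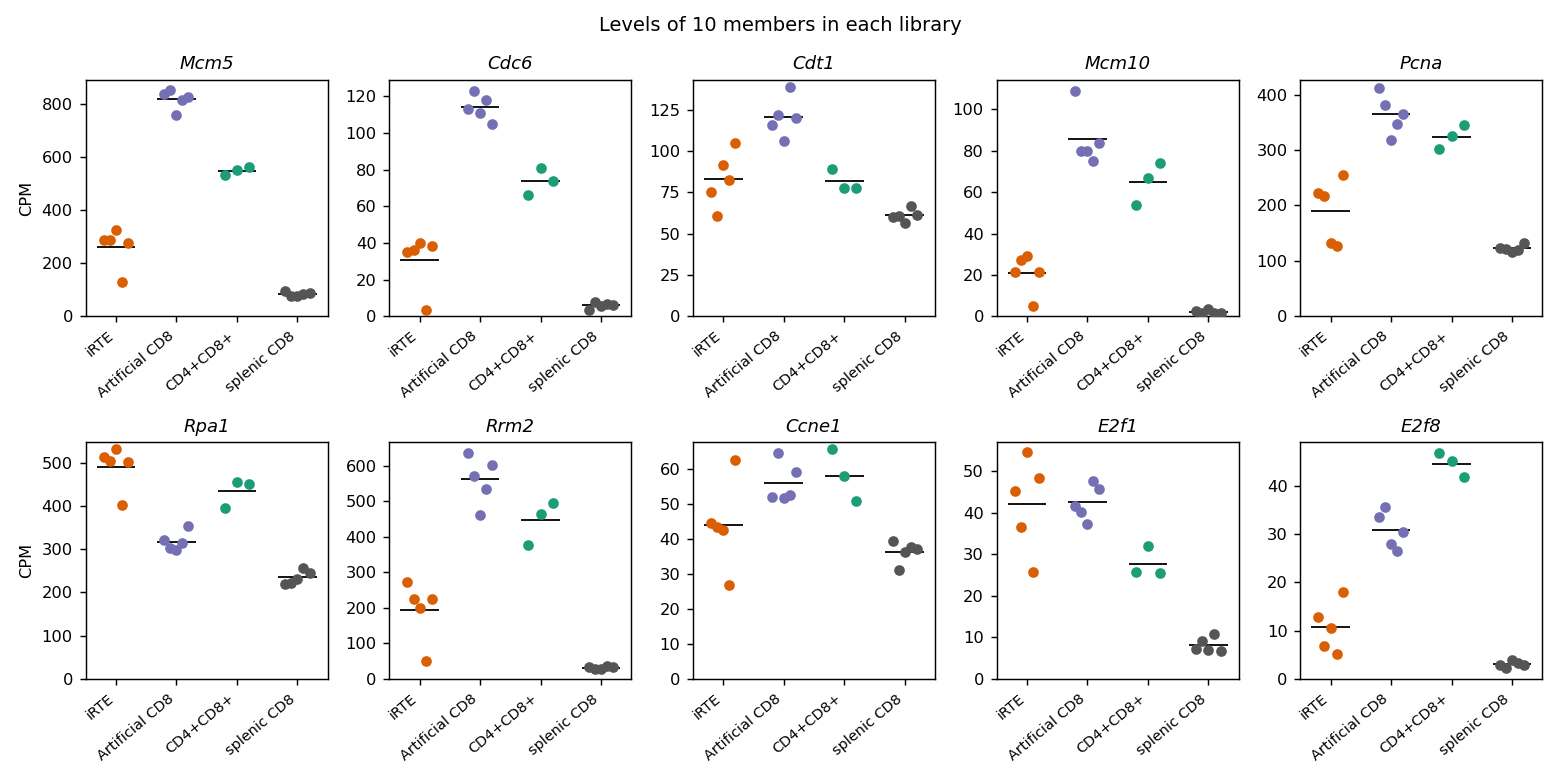
CPM of 10 members in every library, with iRTE, Artificial CD8, CD4+CD8+ and splenic CD8 cells from left to right in each panel. Points are libraries and lines are group means; the vertical axis starts at 0 and differs between panels. Rpa1 has its highest group mean in iRTE cells, no CD4+CD8+ library reaches the Artificial CD8 libraries for E2f1, and Cdc6 in iRTE 4 sits at 3.51 CPM.

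Clamp, clamp loader and single-strand binding genes differed less. Over splenic CD8 cells 6 of 8 passed in iRTE (median 0.70), 8 of 8 in Artificial CD8 (1.42) and 8 of 8 in CD4+CD8+ cells (1.05). Pcna had 222, 217, 133, 127 and 255 CPM in iRTE 1 to 5, 412, 381, 318, 347 and 365 CPM in Artificial CD8 1 to 5, 301, 326 and 346 CPM in CD4+CD8+ 1 to 3, and 124, 122, 116, 120 and 132 CPM in splenic CD8 1 to 5. Pcna, the sliding clamp that tethers the polymerases, lay above the splenic CD8 range in all Artificial CD8 and CD4+CD8+ libraries, while iRTE 3 and 4 were close to or inside it. The gene rose by 0.81 ± 0.21 in iRTE (adjusted p = 0.000178). Reads from its pseudogenes Pcna-ps1 and Pcna-ps2 may be split from it or counted with it. Rfc3 had 30, 21.7, 27, 6.77 and 33.5 CPM in iRTE 1 to 5, 66.6, 62.2, 58.3, 67.6 and 64.8 CPM in Artificial CD8 1 to 5, 57.3, 51.9 and 46.8 CPM in CD4+CD8+ 1 to 3, and 19.3, 16.9, 16.1, 15.8 and 21.3 CPM in splenic CD8 1 to 5. Rfc3, a subunit of the clamp loader, was below every splenic CD8 library in iRTE 4 and above every one in the other iRTE libraries. Rfc4, another subunit, rose most in this role in all 3 cultured groups, by 1.29 ± 0.42 in iRTE, 2.55 ± 0.11 in Artificial CD8 and 2.27 ± 0.17 in CD4+CD8+ cells. Rfc5 rose least of those called in iRTE (0.64 ± 0.28, adjusted p = 0.00681), and Rfc2 least in CD4+CD8+ cells (0.79 ± 0.25, adjusted p = 0.00602), where its call was lost without CD4+CD8+ 1 (0.54, adjusted p = 0.0726).

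Rpa1 had its own order. Rpa1 had 513, 504, 531, 401 and 501 CPM in iRTE 1 to 5, 322, 302, 297, 314 and 353 CPM in Artificial CD8 1 to 5, 396, 455 and 450 CPM in CD4+CD8+ 1 to 3, and 220, 222, 232, 256 and 245 CPM in splenic CD8 1 to 5. Rpa1 is the large subunit of replication protein A, which coats single-stranded DNA in replication and also in repair and recombination. Every iRTE library, iRTE 4 included, lay above every Artificial CD8 and splenic CD8 library, but iRTE 4 lay inside the CD4+CD8+ range. For iRTE over CD4+CD8+ cells Rpa1 did not pass (0.29, adjusted p = 0.0724). It passed without iRTE 4 (0.37, adjusted p = 0.00655). The gene was 1.69-fold higher in iRTE than in Artificial CD8 cells (0.76 ± 0.11, adjusted p = 6.73e-06), the only member called in that direction. Over splenic CD8 cells it was 2.37-fold higher in iRTE (1.25 ± 0.10, adjusted p = 6.72e-09) and 1.41-fold higher in Artificial CD8 cells (0.49 ± 0.06, adjusted p = 0.000265), the smallest difference of that comparison. Artificial CD8 cells had less of it than CD4+CD8+ cells (-0.47 ± 0.07, adjusted p = 0.00834). Its partners did not share this: Rpa2 averaged 97.1 ± 13.7 CPM in iRTE and 184 ± 9.82 CPM in Artificial CD8 cells (-0.79 ± 0.12, adjusted p = 3.32e-05), and Rpa3 30.7 ± 8.51 and 56.6 ± 6.52 CPM (-0.75 ± 0.21, adjusted p = 0.00404). Whether the 3 subunits differed in their change was not tested.

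Polymerase and Okazaki fragment genes rose in 8 of 8 cases in iRTE and Artificial CD8 and in 7 of 8 in CD4+CD8+ cells over splenic CD8 cells, with medians of 1.26, 2.15 and 1.67. Pola1 had 57.4, 74.6, 50.5, 24.9 and 33.8 CPM in iRTE 1 to 5, 94.2, 106, 92.6, 102 and 103 CPM in Artificial CD8 1 to 5, 55.5, 85.8 and 76.7 CPM in CD4+CD8+ 1 to 3, and 23, 28.5, 27, 16.1 and 21.8 CPM in splenic CD8 1 to 5. Pola1 is the catalytic subunit of the polymerase that starts each strand with primase. iRTE 4 fell inside the splenic CD8 range, and iRTE 1 and 2 lay within the CD4+CD8+ range. It rose by 1.25 ± 0.34 in iRTE over splenic CD8 cells (adjusted p = 0.000227), and with iRTE 4 and 5 alone by 0.44 (adjusted p = 0.0784). Pole had 72.8, 68.9, 64.5, 18 and 41.5 CPM in iRTE 1 to 5, 121, 91.1, 94.8, 111 and 91 CPM in Artificial CD8 1 to 5, 65.2, 84.3 and 75.2 CPM in CD4+CD8+ 1 to 3, and 24.5, 18.3, 20.5, 16.4 and 17.3 CPM in splenic CD8 1 to 5. Pole, the leading-strand polymerase, again had iRTE 1 and 2 within the CD4+CD8+ range and iRTE 4 inside the splenic CD8 range. Between iRTE and Artificial CD8 cells it changed by -0.80 ± 0.41, adjusted p = 0.0239, with the call lost without iRTE 5 (-0.70, adjusted p = 0.0509) or without Artificial CD8 1 (-0.72, adjusted p = 0.0579). Fen1 had 8.3, 7.04, 7.05, 2.72 and 9.07 CPM in iRTE 1 to 5, 13.3, 14, 11.2, 15 and 15.1 CPM in Artificial CD8 1 to 5, 9.02, 9.72 and 9.75 CPM in CD4+CD8+ 1 to 3, and 2.43, 2.85, 2.45, 2.66 and 3.14 CPM in splenic CD8 1 to 5. Fen1 is the nuclease that trims the flap between Okazaki fragments. Its exons overlap Gm10143, an antisense gene, over 1909 of 2422 bases, so its low counts are uncertain. The gene rose by 1.52 ± 0.32 in iRTE (adjusted p = 6.5e-05).

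Lig1, the ligase that seals Okazaki fragments, rose most of this role in every cultured group, by 2.56 ± 0.47 in iRTE, 3.34 ± 0.10 in Artificial CD8 and 3.47 ± 0.06 in CD4+CD8+ cells. It fell by 0.78 ± 0.47 in iRTE relative to Artificial CD8 cells (adjusted p = 0.0333), a call lost without iRTE 1 or without Artificial CD8 1, 2 or 5 (-0.76 to -0.74). Pola2, the regulatory subunit of polymerase alpha, rose least in iRTE (0.38 ± 0.16, adjusted p = 0.0161), with the call lost without iRTE 3 (0.29) and when scaled by total counts alone (0.20), and in Artificial CD8 cells (0.65 ± 0.07, adjusted p = 0.00024). In CD4+CD8+ cells the smallest called rise was that of Pold1, the catalytic subunit of polymerase delta (0.91 ± 0.06, adjusted p = 0.000328). Between iRTE and Artificial CD8 cells the called differences of this role ran from -0.91 ± 0.31 for Pola1 to -0.76 ± 0.22 for Pold1.

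All 4 deoxynucleotide supply genes rose in each cultured group over splenic CD8 cells, with medians of 2.02 in iRTE, 3.15 in Artificial CD8 and 3.06 in CD4+CD8+ cells. Rrm1 had 315, 236, 219, 70.2 and 189 CPM in iRTE 1 to 5, 786, 739, 677, 665 and 782 CPM in Artificial CD8 1 to 5, 418, 544 and 509 CPM in CD4+CD8+ 1 to 3, and 77.2, 71.5, 79.6, 70 and 87.9 CPM in splenic CD8 1 to 5. Rrm2 had 272, 224, 199, 50.4 and 226 CPM in iRTE 1 to 5, 636, 572, 463, 536 and 603 CPM in Artificial CD8 1 to 5, 378, 466 and 496 CPM in CD4+CD8+ 1 to 3, and 32.5, 27.9, 28.5, 35.1 and 34 CPM in splenic CD8 1 to 5. Rrm1 and Rrm2 are the subunits of ribonucleotide reductase, which makes deoxynucleotides. For both, the cultured groups other than iRTE lay far above splenic CD8 cells, and iRTE 4 was nearest to them. Rrm2 was 7.02-fold higher in iRTE (2.81 ± 0.46, adjusted p = 2.79e-07), 18.5-fold higher in Artificial CD8 (4.21 ± 0.11, adjusted p = 1.75e-09) and 14.8-fold higher in CD4+CD8+ cells (3.89 ± 0.13, adjusted p = 1.57e-08). Rrm1 rose least of the 4 in iRTE (1.61 ± 0.40) and CD4+CD8+ cells (2.74 ± 0.12), and it was 3.21-fold lower in iRTE than in Artificial CD8 cells (-1.68 ± 0.39, adjusted p = 3.7e-05). Tyms had 66.4, 66, 61.4, 17.2 and 105 CPM in iRTE 1 to 5, 184, 151, 124, 158 and 177 CPM in Artificial CD8 1 to 5, 183, 141 and 154 CPM in CD4+CD8+ 1 to 3, and 23.1, 15.7, 19.8, 21.4 and 22.7 CPM in splenic CD8 1 to 5. Tk1 had 27.6, 24.1, 32.7, 3.93 and 37.7 CPM in iRTE 1 to 5, 47.6, 43.6, 35.2, 40.9 and 42.3 CPM in Artificial CD8 1 to 5, 52.4, 44.2 and 50 CPM in CD4+CD8+ 1 to 3, and 5.89, 5.26, 7.43, 6.28 and 5.39 CPM in splenic CD8 1 to 5. Tyms makes thymidylate and Tk1 salvages thymidine, and iRTE 4 was inside or below the splenic CD8 range for each. Tyms was 2.31-fold lower in iRTE than in Artificial CD8 cells (-1.21 ± 0.46, adjusted p = 0.00227) and 2.35-fold lower than in CD4+CD8+ cells (-1.23 ± 0.46, adjusted p = 0.00761). Tk1 did not pass in either (-0.60 ± 0.61, adjusted p = 0.169 and -0.84 ± 0.61, adjusted p = 0.12), and it rose by 2.85 ± 0.11 in Artificial CD8 over splenic CD8 cells, the smallest rise of this role there.

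The 5 regulators of S-phase entry all rose in each cultured group over splenic CD8 cells (medians 1.70 in iRTE, 2.42 in Artificial CD8 and 2.52 in CD4+CD8+ cells), but here the cultured groups differed in order. Ccne1 had 44.6, 43.4, 42.8, 26.9 and 62.7 CPM in iRTE 1 to 5, 52, 64.6, 51.9, 52.7 and 59.2 CPM in Artificial CD8 1 to 5, 65.8, 58 and 50.9 CPM in CD4+CD8+ 1 to 3, and 39.6, 31.3, 36.4, 37.9 and 37.3 CPM in splenic CD8 1 to 5. Ccne2 had 27.5, 17.6, 8.38, 3.87 and 16.4 CPM in iRTE 1 to 5, 56.8, 57.5, 36.4, 51.9 and 30.7 CPM in Artificial CD8 1 to 5, 42.6, 49.4 and 50.8 CPM in CD4+CD8+ 1 to 3, and 4.87, 5.03, 5.8, 5.46 and 4.67 CPM in splenic CD8 1 to 5. Both encode cyclin E, the partner of Cdk2 at the start of S phase. Ccne1 rose least of the regulators in every cultured group, by 0.45 ± 0.20 in iRTE, 0.68 ± 0.09 in Artificial CD8 and 0.75 ± 0.13 in CD4+CD8+ cells, and in iRTE its call was lost without iRTE 5 (0.32, adjusted p = 0.0701), when scaled by total counts alone (0.27), by limma-voom (0.39) and in a fit of these groups alone (adjusted p = 0.051). Ccne2 rose by 1.70 ± 0.50 in iRTE over splenic CD8 cells (adjusted p = 0.000505) and fell by 1.53 ± 0.53 in iRTE relative to Artificial CD8 cells (adjusted p = 0.00158). E2f1 had 45.3, 36.5, 54.5, 25.8 and 48.4 CPM in iRTE 1 to 5, 41.6, 40.1, 37.3, 47.7 and 45.6 CPM in Artificial CD8 1 to 5, 25.8, 31.9 and 25.4 CPM in CD4+CD8+ 1 to 3, and 7.3, 9.24, 7.06, 10.9 and 6.74 CPM in splenic CD8 1 to 5. E2f2 had 44.4, 37, 44.4, 36.5 and 58.6 CPM in iRTE 1 to 5, 72.9, 73.9, 81.3, 87.1 and 82.4 CPM in Artificial CD8 1 to 5, 87.8, 131 and 110 CPM in CD4+CD8+ 1 to 3, and 21, 18.2, 19.4, 22 and 19.9 CPM in splenic CD8 1 to 5. E2f1 and E2f2 are E2F factors that activate transcription. E2f1 in iRTE libraries, iRTE 4 included, lay above every splenic CD8 library. It was the regulator that rose most in iRTE (2.54 ± 0.24, adjusted p = 5.87e-09) and showed 42.1 ± 11.2 CPM in iRTE and 42.5 ± 4.2 CPM in Artificial CD8 cells, with no call between them (0.12 ± 0.21, adjusted p = 0.645).

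E2f1 was also the one member called higher in iRTE than in CD4+CD8+ cells (0.72 ± 0.23, adjusted p = 0.022), although iRTE 4 lay inside the CD4+CD8+ range. That call was lost without iRTE 3 (0.58, adjusted p = 0.0513), without CD4+CD8+ 1 (0.68, adjusted p = 0.0708) and without CD4+CD8+ 3 (0.65, adjusted p = 0.0945). E2f2 ran the other way, lower in iRTE than in CD4+CD8+ cells by 2.31-fold (-1.21 ± 0.19, adjusted p = 5.9e-06) and lower in Artificial CD8 than in CD4+CD8+ cells (-0.48 ± 0.16, adjusted p = 0.0295). E2f8 had 12.9, 6.88, 10.6, 5.08 and 17.9 CPM in iRTE 1 to 5, 33.6, 35.5, 27.9, 26.5 and 30.5 CPM in Artificial CD8 1 to 5, 46.7, 45.1 and 41.8 CPM in CD4+CD8+ 1 to 3, and 2.89, 2.18, 4.01, 3.36 and 2.96 CPM in splenic CD8 1 to 5. E2f8, an atypical E2F that represses transcription, was highest in CD4+CD8+ cells, with no overlap with any other group. It was the regulator with the largest difference from splenic CD8 cells in Artificial CD8 (3.37 ± 0.16, adjusted p = 5.38e-09) and CD4+CD8+ cells (3.92 ± 0.15, adjusted p = 3.9e-09), and the member with the largest difference between iRTE and CD4+CD8+ cells (-1.96 ± 0.32, adjusted p = 4.39e-05).

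**Figure D4:**
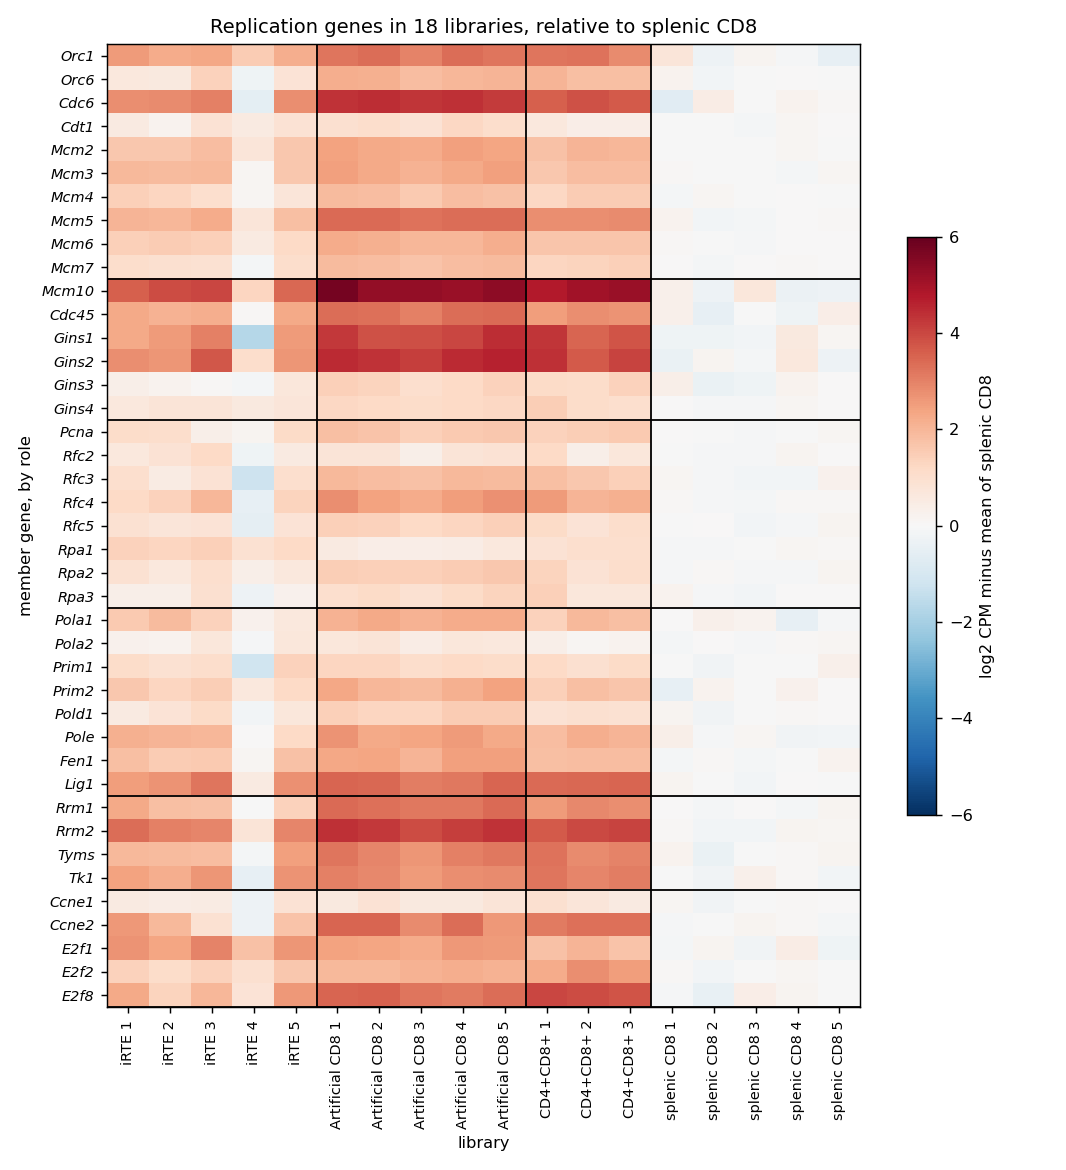
Log2 CPM of the 41 members (rows, by role group) in the 18 libraries (columns), minus the mean of the splenic CD8 libraries for that gene; red is above and blue below that mean. The column of iRTE 4 is pale or blue, with 15 members below, 10 within and 16 above the splenic CD8 range in CPM. This split was not counted over all tested genes. The plotted values use TMM scaling, with which Cdc6, Pola2 and Pold1 in iRTE 4 were no longer below the splenic CD8 range. Rpa1 is on average reddest in iRTE cells.

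The comparison of iRTE with Artificial CD8 cells sets 2 kinds of cultured CD8+ cells side by side. Relative to Artificial CD8 cells 34 members fell in iRTE cells and 1 rose, Rpa1, where 18.7% of all tested genes were lower and 20.0% higher. The median log2 fold change was -0.85 (0.01 over all tested genes), and 34 members lay below in every library, as did 15.5% of tested genes, with 1 above (8.14%). Rfc2, Pola2, Prim1, Tk1, Ccne1 and E2f1 did not pass. Scaled by total counts alone, 35 members were lower and 1 higher, and of all genes 23.2% were lower and 15.1% higher, with the median of all genes at -0.11. Without iRTE 4 the counts were 34 and 1, with a median of -0.71, where 21.9% of all tested genes were lower and 21.9% higher. Each of iRTE 1, 2, 3 and 5 had 34 to 39 members below every Artificial CD8 library. The share of all tested genes below was not counted for single libraries.

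Relative to CD4+CD8+ cells 20 members fell in iRTE cells and 1 rose, E2f1, where 12.3% of all tested genes were lower and 11.8% higher (15.5% and 9.04% when scaled by total counts alone). The median was -0.59 (0.02 over all tested genes). In CPM without TMM scaling 25 members lay below in every library (13.5% of tested genes) and 0 above (6.41%). Helicase activation genes fell in 5 of 6 cases, deoxynucleotide supply in 3 of 4, origin licensing in 4 of 10 and the polymerase role in 1 of 8, Lig1 (-0.91 ± 0.46, adjusted p = 0.0425). The call of Lig1 was lost on leaving out any of 14 of the 18 libraries (-0.94 to -0.88), and that of Rpa2 on leaving out any of 13. Of the 20 calls 12 held without any one library. The called licensing genes were Orc1, Orc6, Mcm5 and Mcm7, from -1.15 ± 0.27 for Orc6 to -0.52 ± 0.23 for Mcm7. Among the others called, the differences ran from -1.58 ± 0.90 (Gins1) to -0.50 ± 0.14 (Gins4) in helicase activation, from -1.02 ± 0.44 (Rfc3) to -0.39 ± 0.18 (Rpa2) in the clamp role, and from -1.23 ± 0.46 (Tyms) to -1.08 ± 0.47 (Rrm2) in nucleotide supply. The count of lower members was 13 without CD4+CD8+ 1, 24 without iRTE 4 and 4 in a fit of these groups alone. Over all tested genes 11.3%, 15.7% and 4.61% were lower in these fits.

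Artificial CD8 and CD4+CD8+ cells were the closest pair: 1 member rose, Cdt1 (0.55 ± 0.10, adjusted p = 0.0115), and 2 fell, Rpa1 and E2f2, where 6.54% of all tested genes were higher and 8.12% lower. The median was 0.33 (0.00 over all tested genes), and 21 members lay above in every library with 3 below, against 14.7% and 14.0% of tested genes. Cdc45 (0.63 ± 0.11, adjusted p = 0.208) and Cdc6 (0.61 ± 0.08, adjusted p = 0.373) had the largest positive values and did not pass. Those counts depended on iRTE 4, which enters them through the spread that all groups share in the fit. Without it 15 members were higher, among them Cdc6 (0.61, adjusted p = 0.00943), and 2 lower. In a fit of these groups alone 18 were higher and 3 lower. The shares over all tested genes rose too: 9.14% higher and 10.8% lower without iRTE 4, and 12.9% and 13.4% in the fit of these groups alone. The call of Cdt1 was lost without CD4+CD8+ 2 (0.51, adjusted p = 0.051) or CD4+CD8+ 3 (0.51, adjusted p = 0.054). That of E2f2 was lost without either of these libraries or without Artificial CD8 1, 2 or 3 (-0.48 to -0.33).

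**Figure D5:**
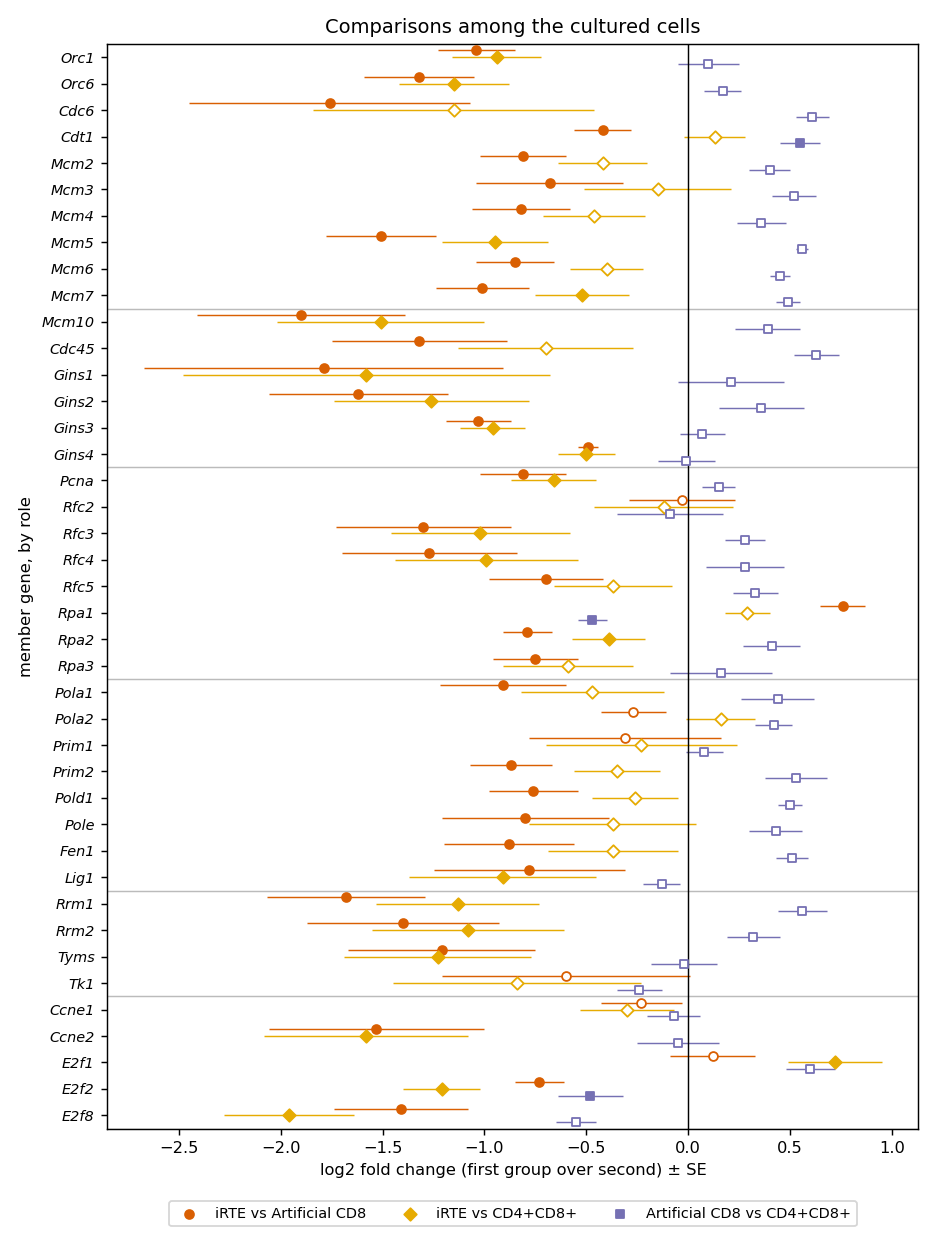
Log2 fold change ± SE of each member for iRTE over Artificial CD8, iRTE over CD4+CD8+ and Artificial CD8 over CD4+CD8+ cells, by role group. Filled symbols passed an adjusted p of 0.05; iRTE values run from -1.96 (E2f8) to 0.76 (Rpa1), and those of Artificial CD8 over CD4+CD8+ cells from -0.55 to 0.63.

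The other 70 genes of replication were described from 5 lists: 14 further licensing and firing genes, 21 fork genes, 10 of nucleotide supply, 11 that copy chromatin and 14 of G1/S control. Relative to splenic CD8 cells 36 rose and 5 fell in iRTE, 51 rose and 6 fell in Artificial CD8, and 49 rose and 3 fell in CD4+CD8+ cells, with medians of 0.42, 0.97 and 0.77, against shares over all tested genes of 29.2%, 30.3% and 28.9% higher and 29.0%, 30.2% and 27.4% lower. Relative to Artificial CD8 cells 4 rose and 46 fell in iRTE (median -0.66), against 20.0% higher and 18.7% lower over all tested genes (median 0.01). Firing genes were mixed in iRTE: Gmnn, the inhibitor of Cdt1, rose over splenic CD8 cells (2.09 ± 0.53, adjusted p = 2.71e-05), as did Ticrr (2.43 ± 0.65, adjusted p = 5.14e-05), while Cdc7, a kinase that triggers firing, fell (-1.39 ± 0.35, adjusted p = 0.000389) and so did Mcm9 (-0.54 ± 0.19, adjusted p = 0.0142). In Artificial CD8 cells Ticrr rose by 3.88 ± 0.21 and Mcm8 by 3.11 ± 0.23, while Orc5 fell (-0.57 ± 0.05, adjusted p = 0.00218) and so did Mcm9 (-0.48 ± 0.09, adjusted p = 0.0249). In CD4+CD8+ cells Mcm8 rose by 2.79 ± 0.21 and Gmnn by 2.76 ± 0.20, and Mcm9 fell (-0.58 ± 0.20, adjusted p = 0.0235). Relative to Artificial CD8 cells, Mcm8 (-1.98 ± 0.43, adjusted p = 6.68e-05) and Cdc7 (-1.27 ± 0.39, adjusted p = 0.00156) fell in iRTE.

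Samhd1 stood against its list. Samhd1 had 733, 954, 710, 747 and 1039 CPM in iRTE 1 to 5, 199, 205, 219, 208 and 218 CPM in Artificial CD8 1 to 5, 436, 428 and 404 CPM in CD4+CD8+ 1 to 3, and 313, 336, 320, 340 and 338 CPM in splenic CD8 1 to 5. Samhd1 breaks deoxynucleotides down, the reverse of what Rrm1 and Rrm2 do. All 5 iRTE libraries lay above every other library, iRTE 4 included, and Artificial CD8 libraries lay below all splenic CD8 libraries. In iRTE it was 2.87-fold higher than in splenic CD8 cells (1.52 ± 0.10, adjusted p = 2.49e-10) and 4.34-fold higher than in Artificial CD8 cells (2.12 ± 0.10, adjusted p = 1.83e-11), and in Artificial CD8 it was 1.51-fold lower than in splenic CD8 cells (-0.60 ± 0.03, adjusted p = 1.98e-05). Of the 10 genes of its list, 8 rose in iRTE over splenic CD8 cells, Samhd1 among them, 8 rose and 1, Samhd1, fell in Artificial CD8, and 8 rose in CD4+CD8+ cells. Of all tested genes 29.2%, 30.3% and 28.9% were higher and 29.0%, 30.2% and 27.4% lower in these comparisons. Dut, which removes dUTP, rose by 3.16 ± 0.10 in Artificial CD8 and 2.32 ± 0.23 in CD4+CD8+ cells over splenic CD8 cells and was 3.97-fold lower in iRTE than in Artificial CD8 cells (-1.99 ± 0.23, adjusted p = 2.01e-07). Dck, a salvage kinase, rose by 1.54 ± 0.05 in Artificial CD8 and 1.52 ± 0.06 in CD4+CD8+ cells. Dctpp1, a pyrophosphatase that clears modified nucleotides, rose in iRTE (1.36 ± 0.22, adjusted p = 4.45e-06), and Shmt1, which feeds thymidylate synthesis, was lower in iRTE than in Artificial CD8 cells (-2.05 ± 0.24, adjusted p = 7.44e-08).

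Of the 21 fork genes, 12 rose and 0 fell in iRTE over splenic CD8 cells (median 0.58), 17 rose and 1 fell in Artificial CD8 (1.04), and 16 rose and 1 fell in CD4+CD8+ cells (0.84). Over all tested genes 29.2%, 30.3% and 28.9% were higher and 29.0%, 30.2% and 27.4% lower. Their medians were -0.05, -0.03 and -0.03. Tipin, of the fork protection complex, rose by 1.18 ± 0.22 in iRTE, 2.19 ± 0.12 in Artificial CD8 and 2.04 ± 0.10 in CD4+CD8+ cells over splenic CD8 cells and fell by 1.00 ± 0.21 in iRTE relative to Artificial CD8 cells. Subunits of ribonuclease H2, which removes ribonucleotides from DNA, rose over splenic CD8 cells: Rnaseh2a in iRTE (1.08 ± 0.12, adjusted p = 3.5e-07) and Rnaseh2b in Artificial CD8 (1.89 ± 0.06) and CD4+CD8+ cells (1.97 ± 0.16). The mismatch repair gene Msh6 was lower in iRTE than in Artificial CD8 cells (-0.75 ± 0.10, adjusted p = 8.55e-05), while Rnaseh2c (0.86 ± 0.16, adjusted p = 0.000577) and Pold4, a small polymerase delta subunit (1.13 ± 0.30, adjusted p = 0.00127), were higher. Pold4 was lower in Artificial CD8 than in splenic CD8 cells (-0.65 ± 0.13, adjusted p = 0.0273), and Pole4 lower in CD4+CD8+ than in splenic CD8 cells (-0.39 ± 0.07, adjusted p = 0.00698).

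The largest single rise of the lists over splenic CD8 cells was a chromatin copying gene in iRTE (2.78) and Artificial CD8 cells (4.34). In CD4+CD8+ cells it was a G1/S control gene (4.40). The medians of chromatin copying genes were only 0.47, 1.20 and 0.93 in iRTE, Artificial CD8 and CD4+CD8+ cells. Those of G1/S control were 0.18, 0.78 and 0.85. Nucleotide supply had higher medians, of 0.71, 1.53 and 1.11. Uhrf1, which maintains DNA methylation at the fork, averaged 576 ± 40.5 CPM in Artificial CD8 and 29.5 ± 4.14 CPM in splenic CD8 cells (20.3-fold, 4.34 ± 0.10, adjusted p = 8.02e-09). The histone chaperone subunit Chaf1b rose in iRTE (1.18 ± 0.12), Artificial CD8 (2.06 ± 0.06) and CD4+CD8+ cells (2.00 ± 0.16) over splenic CD8 cells and was lower in iRTE than in Artificial CD8 cells (-0.88 ± 0.13, adjusted p = 1.76e-05). Asf1b, another chaperone, rose by 2.48 ± 0.42 in iRTE and 3.40 ± 0.12 in CD4+CD8+ cells, and Asf1a was lower in iRTE than in Artificial CD8 cells (-0.71 ± 0.11, adjusted p = 6.37e-05). Ccna2, cyclin A, rose by 2.63 ± 0.49 in iRTE, 4.21 ± 0.17 in Artificial CD8 and 4.40 ± 0.17 in CD4+CD8+ cells. Tfdp1, the dimer partner of E2F factors, rose by 1.57 ± 0.18, 3.09 ± 0.07 and 2.47 ± 0.11 in the same groups and was 2.86-fold lower in iRTE than in Artificial CD8 cells (-1.52 ± 0.17, adjusted p = 1.13e-07). E2f5 fell in iRTE (-0.96 ± 0.39, adjusted p = 0.0196), Artificial CD8 (-1.39 ± 0.16, adjusted p = 0.00152) and CD4+CD8+ cells (-1.09 ± 0.42, adjusted p = 0.0271). Skp2, which marks the inhibitor p27 for destruction, averaged 7.27 ± 3.82 CPM in iRTE and 54.1 ± 5.91 CPM in Artificial CD8 cells (6.88-fold lower, -2.78 ± 0.34, adjusted p = 1.9e-07), while the repressor E2f7 was higher in iRTE, at 3.25 ± 1.65 and 1.38 ± 0.593 CPM (1.36 ± 0.47, adjusted p = 0.0168).

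Counting bears on some of these levels. In the GENCODE M21 annotation, used for overlaps alone, 14 members share exon bases with a gene on the other strand: Ccne2, Cdc45, E2f8, Fen1, Gins2, Lig1, Mcm7, Orc1, Orc6, Pole, Rfc2, Rfc4, Rfc5 and Tk1. The strand setting of the counts is not given in the sources used here, so these levels are uncertain, most of all for Fen1 and Gins2 (2758 of 4097 exon bases shared with Gse1). Among the 27 members without such an overlap, 24 rose in iRTE over splenic CD8 cells (median 1.25), 27 in Artificial CD8 (2.04) and 26 in CD4+CD8+ cells (1.62), where 29.2%, 30.3% and 28.9% of all tested genes were higher. Relative to Artificial CD8 cells 22 of the 27 fell and 1 rose in iRTE (-0.81; 18.7% and 20.0% of tested genes), and relative to CD4+CD8+ cells 12 fell and 1 rose in iRTE (-0.47; 12.3% and 11.8%). Between Artificial CD8 and CD4+CD8+ cells 1 rose and 2 fell (0.39; 6.54% and 8.12%).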

How the data were processed

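The count values are whole numbers per gene symbol that the authors deposited, made per the submitters' processing notes with STAR 2.4.2, build mm9 and Subread. Per the file headers, alignments were sorted and duplicates marked. Neither the annotation nor the strand setting is given in the sources used here. A deposited table of log2 values was not used. All 18 libraries entered one fit in edgeR 4.0.16 (R 4.3.3): TMM scaling, the default low-count filter (13922 genes), robust quasi-likelihood F tests with one coefficient per group, and Benjamini-Hochberg adjustment at 0.05. SE values come from within-group variances of log2 CPM (prior count 2). Alternatives used RLE or total-count scaling, 2 other filters, DESeq2 1.42.0, limma-voom (limma 3.58.1), a replicate block, the compared groups alone, subsets of iRTE libraries, and each library left out. At these depths 3 counts equal 0.155 to 0.269 CPM, for counting error only. The pipeline was tested on simulated data with 200 changed genes per comparison. It recovered 41 to 60% of 2-fold and 71 to 79% of 4-fold changes. False calls were 3.65 to 8.13% of all calls, with 8.13% for Artificial CD8 over CD4+CD8+ cells and 5.88% for iRTE over CD4+CD8+ cells. The simulation gave each gene the same spread in all libraries and held no outlying library such as iRTE 4. Libraries of one group differed by more than counting noise (chi-square over its degrees of freedom 4.4 or more).

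Members, gene lists and comparisons were chosen with earlier results of these data known. The text names 23 preset members in every library. It then names, per comparison and role, the called members with the largest and smallest change, members against the main direction, up to 5 members not called, and up to 2 called genes per other list and direction with the smallest adjusted p. Not all of the 10 marker lists are summed in the text.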

Additional observations from a re-analysis of the deposited data

Results flagged for a closer look

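Of 123 series of 5 libraries (41 members in iRTE, Artificial CD8 and splenic CD8 cells), 11 held a library far from the rest by Dixon's test at 95%, where chance gives about 5 percent. In iRTE 4 there were 7 such values, all low. Cdc6 stood at 3.51 CPM there (35 to 40.2 CPM in the other iRTE libraries), Mcm3 at 104 CPM (307 to 340), Mcm5 at 128 CPM (278 to 326) and Mcm6 at 312 CPM (522 to 582). Cdc45 stood at 10.2 CPM (39.2 to 48.2), Rfc5 at 34.2 CPM (77.3 to 90.8) and Rpa1 at 401 CPM (501 to 531). Artificial CD8 3 held 3 low values: Mcm7 at 463 CPM (516 to 534 in the other Artificial CD8 libraries), Cdc45 at 81.4 CPM (100 to 107) and Rfc2 at 99.1 CPM (132 to 143). It was the lowest library of its group for 31 of 41 members, which was not counted over all tested genes. In Artificial CD8 1, Mcm10 was high at 109 CPM (75.2 to 83.9).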

How the results depend on the processing

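For the 164 pairs of a named member and a comparison, no called value changed sign. Of their values under alternatives, 4282 kept their direction and side of the threshold, 88 lost the threshold, 48 gained it, and 16, called in neither fit, changed sign. For iRTE over splenic CD8 cells Rpa3 (0.37) stood at -0.01 with iRTE 4 and 5 alone. For iRTE over Artificial CD8 cells E2f1 (0.12) stood at -0.01 by total counts, -0.17 with iRTE 4 and 5 alone and from -0.02 to 0.26 with a library left out. For iRTE over CD4+CD8+ cells Pole (-0.37) stood at 0.04 with iRTE 1 to 3 alone. For Artificial CD8 over CD4+CD8+ cells, with a library left out, Ccne1 (-0.07) ran from -0.17 to 0.03, Ccne2 (-0.05) from -0.13 to 0.07, Orc1 (0.10) from -0.02 to 0.17 and Tyms (-0.02) from -0.10 to 0.10. There Ccne2 stood at 0.08 with a replicate block, and Tyms at 0.00 with a replicate block, by RLE scaling and by DESeq2. Member counts against splenic CD8 cells kept within 1.5 times for all 3 cultured groups, as did those of iRTE against Artificial CD8 cells (31 to 35 lower, 1 higher). The pairs that moved were those with CD4+CD8+ cells. For iRTE over CD4+CD8+ cells the higher members numbered 2 by DESeq2 and with iRTE 1 to 3 alone, 0 with a replicate block, with these groups alone and with iRTE 4 and 5 alone, and 0 to 2 with a library left out. The lower members numbered 4 with these groups alone, where 4.61% of all tested genes were lower, and 13 to 24 with a library left out. With these groups alone 1 gene of the other lists was higher and 12 were lower. For Artificial CD8 over CD4+CD8+ cells the higher members numbered 4 by RLE scaling, 3 by total counts, 2 with a minimum mean of 1 CPM, 8 by DESeq2, 2 by limma-voom, 2 with a replicate block, 18 with these groups alone and 0 to 15 with a library left out. Over all tested genes the higher share was 6.54% in the main fit, 12.9% with these groups alone and 9.14% without iRTE 4. The lower members numbered 1 without a filter and 1 to 2 with a library left out. Of the other lists 17 genes were higher and 7 lower with these groups alone, and 6 to 14 higher and 2 to 7 lower with a library left out. Genes of the other lists lower in iRTE than in splenic CD8 cells numbered 11 by total counts, 3 with iRTE 4 and 5 alone and 3 to 7 with a library left out. Those lower in Artificial CD8 than in splenic CD8 cells numbered 3 to 6, and in CD4+CD8+ than in splenic CD8 cells 1 to 4, with a library left out. The mean log2 CPM of splenic CD8 cells was 4.65 by total counts, which also set the median of all genes in iRTE over splenic CD8 cells at -0.22 instead of -0.05. Apart from the smaller sets of libraries, the cause was not tested. Replicate numbers showed no clear pairing of the libraries: same-numbered libraries had correlations of deviations between -0.07 and 0.06. The same number gave the closest match in 3 of 5 cases for Artificial CD8 and splenic CD8 libraries, and in 0 or 1 case for each other pair of groups. So few libraries cannot exclude a pairing. With the number as a block 38 members rose in iRTE over splenic CD8 cells, 41 in Artificial CD8 and 40 in CD4+CD8+ cells. In that fit 34 fell in iRTE relative to Artificial CD8 cells, and 15 relative to CD4+CD8+ cells. Genes such as Gins1 in iRTE 4, at 0.363 CPM, lie near the limit of 3 counts.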
